A study of Felis catus with 38 samples.

Results

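The genes described here were 100 genes and the single gene whose level they followed from tumour to tumour (101 of 26681 gene IDs). Among all genes tested, that gene had the largest fitted log2 fall between 2 biopsies of oral tumours in pet cats. The falling gene, ENSFCAG00000042595, is called the anchor below. It had been picked for its fall, and the other 100 were selected on the Day 1 libraries alone. For this, each count was divided by its library's total and multiplied by 1000000, which gives CPM, and log2(CPM + 1) was taken. Of the 12763 genes with a mean of at least 2 on that scale at Day 1, 3262, the anchor included, followed the anchor more closely than they followed 2 other reference genes, the most abundant gene of the table and another abundant gene. The 100 with the highest Pearson's r with the anchor were kept and are called the tracking genes. The files pair these IDs with no gene symbol, and 0 IDs matched the reference table, so the tracking genes are identified by their rank of r (rank 1 is the closest), no function can be given for them, and no markers of a cell type could be read.

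All biopsies came from the oral cavity of cats, are labelled tumor as genotype and mucosal surface as cell type, and were taken as total RNA. The 19 Day 1 libraries are labelled pre-treatment and the 19 Day 8 libraries CS3D, a cyclic oligonucleotide directed at STAT3. The libraries analysed include no Day 8 biopsy without treatment, so the effects of time, of the earlier biopsy and of CS3D cannot be told apart. The numbers 1 to 5 and 7 to 20 are shared by both days and were taken as cats. All Day 1 libraries and the Day 8 libraries of cats 1 to 12 are labelled batch 1, and the Day 8 libraries of cats 13 to 20 batch 2.

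STAT3 is a transcription factor that carries signals from cytokine and growth factor receptors to the nucleus and is often active in squamous cancers. A decoy oligonucleotide offers the protein a copy of its binding site, away from its genes. In a bulk biopsy, genes can follow one another because they are switched on together in a cell or because they belong to a cell type whose share differs between biopsies. In these data fewer cells of a type and less RNA per cell cannot be told apart.

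Libraries held from 10.6 to 22.6 M counts, where 1 M is 1000000. At Day 1, cats 1 to 13, whose columns stand before those of cats 14 to 20 in the table, averaged 19.3 ± 2.35 M and cats 14 to 20 averaged 12.0 ± 0.951 M (SD, n = 12 and 7). Several results are also given within the sets made by this division or by the batch label. No library was a copy of another, and nothing in the labels says more about how the biopsies of a cat were taken.

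The anchor was high in a few tumours and low in most. At Day 1 it stood at 458 CPM in cat 4, 233 in cat 7, 135 in cat 10, 79.5 in cat 11 and 59.2 in cat 13. Cats 17 and 15 had 12.6 and 11.3 CPM, no other cat exceeded 4.71 CPM, and cat 20 had no count. The median was 3.95 CPM and the mean 53.0 ± 115 CPM (SD, n = 19). Divided by column order, the anchor averaged 81.4 ± 139 CPM over the first 12 cats, 1 to 13, but 4.24 ± 5.46 CPM over the last 7 (SD). At Day 8 it was 58.1 CPM in cat 10, 22.9 in cat 4 and 21.0 in cat 19, at most 2.56 CPM elsewhere, and without a count in cats 3, 7 and 9. The Day 8 median was 0.601 CPM and the mean 5.91 ± 14.3 CPM (SD, n = 19).

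The anchor's level was lower at Day 8 in 16 of 19 cats, and the days overlapped widely because most tumours held little of it at either time. In cat 7 it went from 4423 counts to none, and in cat 19 it went the other way, from 49 to 288 counts. Its fitted log2 change was -2.77 ± 0.76 (SE, edgeR quasi-likelihood test with each cat as a block, Benjamini-Hochberg adjusted p = 0.0322), the lowest of the 14996 genes tested. This is a description, since the gene was picked for it. Within the sets given by the batch label the change was -3.44 for cats 1 to 12 and -1.56 for cats 13 to 20. Divided by column order it was -3.84 for cats 1 to 13 and -0.65 for cats 14 to 20. Leaving out cat 4, 11, 13, 15 or 17 ended the call, as did a batch term with or without the block. The removal of the filter on low counts and a fit within any of these 4 sets ended it too. Both fits with a batch term called 0 genes of the whole table, as did those within cats 1 to 12, 13 to 20 and 1 to 13. Within cats 14 to 20, 27 genes were called lower and 2 higher.

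**Figure D1:**
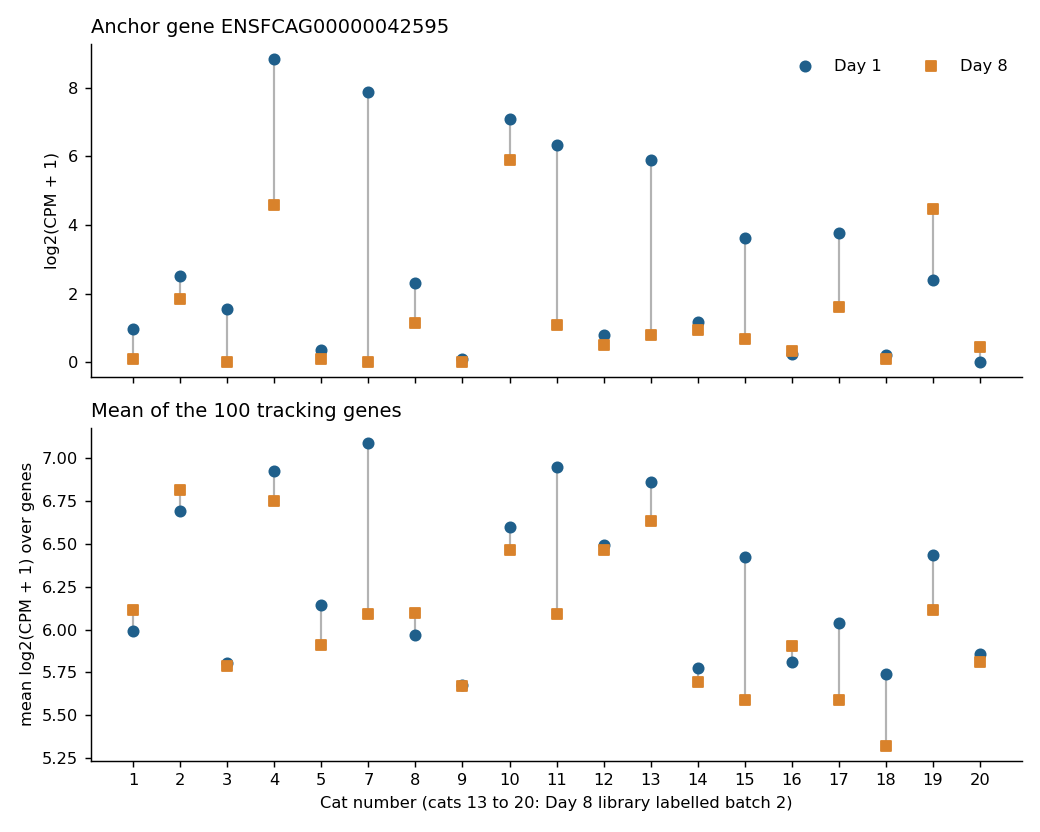
Level of the anchor (top, log2(CPM + 1)) and mean level of the 100 tracking genes (bottom, mean of log2(CPM + 1) over genes) in each cat, with Day 1 as circles, Day 8 as squares and a line joining the 2 biopsies of a cat. The anchor was above 50 CPM at Day 1 in cats 4, 7, 10, 11 and 13, and the mean of the tracking genes was lower at Day 8 in 15 of 19 cats, with the longest lines in cats 7, 11 and 15.

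The r that chose the tracking genes ran from 0.561 to 0.725 at Day 1, with a median of 0.606. The last genes inside the list had r of 0.563, 0.563 and 0.561, and the first outside 0.561, 0.559 and 0.559, so the edge of the list is not a step in the values. Their median r with the most abundant gene was -0.26 and with the other abundant gene 0.36. The anchor's own r with these 2 genes was -0.018 and 0.27. All 100 passed the filter on low counts, 93 had a count in every library and 88 had at least 10 counts in every library.

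The tracking genes were of unlike kinds in how far they varied between tumours. Over the 19 Day 1 libraries the SD of log2(CPM + 1) had a median of 0.39 among them, against 0.46 over all 12763 genes, and ran from 0.21 to 3.38. In 18 of them, called the wide genes below, the SD was 1 or more, a spread that 11.7% of the 12763 genes also reached. The tumour with the highest level exceeded the median tumour by 6.53-fold in the middle wide gene (range 2.46 to 206) and by 1.66-fold in the middle of the other 82 (range 1.25 to 3.15). The SD of 1 that divides them was chosen after the values had been seen.

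The tumours that carried the set at Day 1 were largely those that carried the anchor, as the choice of members required. Averaged over the 100 genes, cat 7 stood 0.81 above each gene's own mean on the log2 scale, cat 11 0.67, cat 4 0.65, cat 13 0.58, cat 2 0.42 and cat 10 0.32. The lowest were cats 9, 18 and 14, at -0.60, -0.54 and -0.50. Cat 2 was high in the tracking genes although its anchor level was only 4.71 CPM. Every cat named here as high stands before cat 14 in column order. Over the first 12 cats of that order the set's deviation averaged 0.16 ± 0.49, but over the last 7 it averaged -0.27 ± 0.30 (SD). The first 12 also had larger Day 1 libraries, and the part of depth in these deviations was not tested. Cat 7 held the highest level of 26 tracking genes, cat 11 of 25 and cat 13 of 19, while over all 12763 genes these cats held 5.01%, 3.24% and 2.14% of the highest levels. Cat 4, with the most anchor, held the highest level of 4 tracking genes, beside 1.14% of all.

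The Day 8 libraries, which entered the choice through the anchor's fall but not the ranking by r, gave another order. Cat 2 stood 0.77 above the Day 8 means, cat 4 0.70, cat 13 0.59 and cats 12 and 10 0.42 each. Cats 7 and 11 stood at 0.045 and 0.043, in the middle of the 19. In cat 4, 93 tracking genes were above their own mean at Day 1 and 93 at Day 8, and in cat 13 86 and 85. In cat 7 the number went from 100 to 52, in cat 11 from 94 to 71 and in cat 15 from 69 to 14. These numbers were not set beside the same count over all genes in the ranking. The part of a shift of the whole library in them, and in the deviations, was not tested. By the deviations above, cats 4, 13, 2 and 10 stood high in the set at both biopsies, and cats 7 and 11 at Day 1 only. The Day 1 levels chose the genes, and cats 7 and 11 were high in the anchor, so this contrast is a description. All the cats named as high at both biopsies are among the first 12 in column order. The Day 8 deviation of those 12 averaged 0.19 ± 0.38, against -0.33 ± 0.25 among the last 7 (SD).

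**Figure D2:**
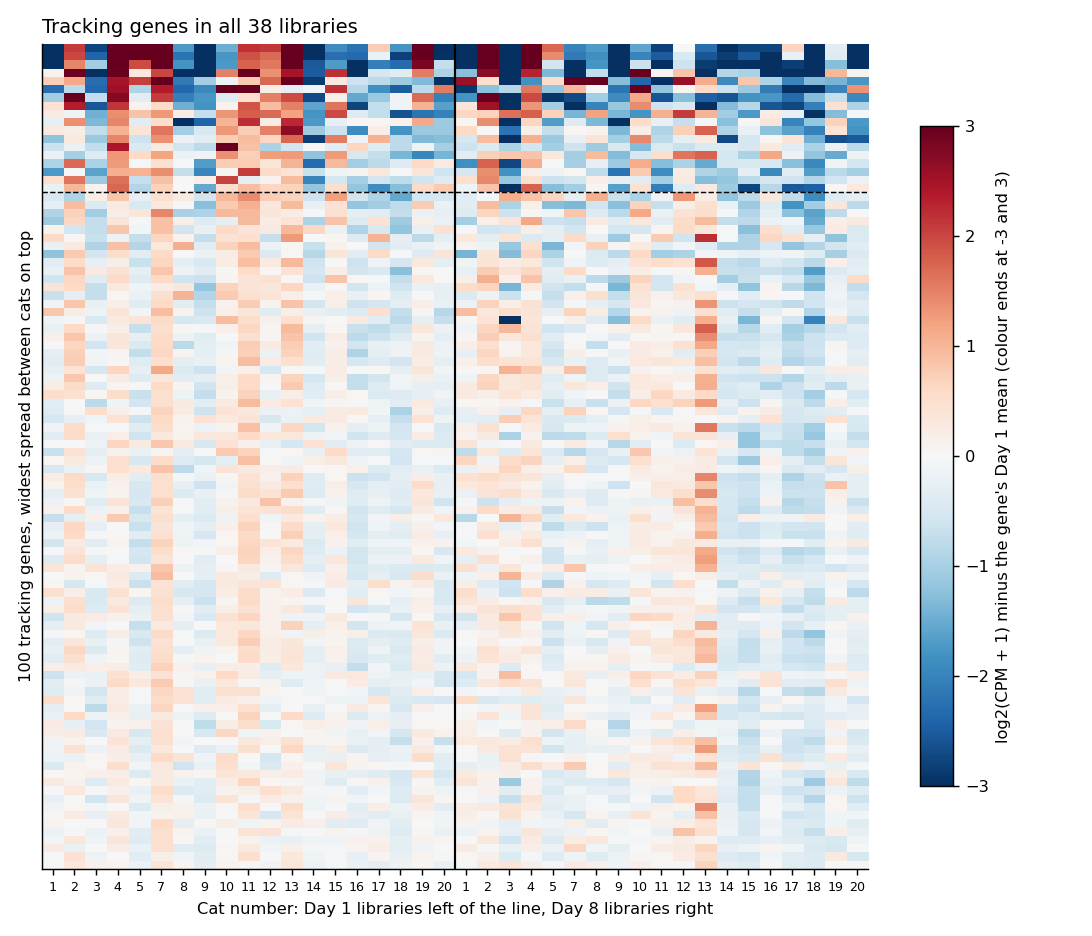
Level of each tracking gene (rows, widest spread between cats at the top, dashed line at an SD of 1) in all 38 libraries (columns), as log2(CPM + 1) minus the gene's Day 1 mean, with colours ending at -3 and 3. Cats 7, 11 and 13 are red over most rows at Day 1, while at Day 8 cat 13 is the darkest red column below the dashed line and cats 15, 17 and 18 are mostly blue.

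The 3 widest tracking genes, ranked 52, 63 and 33, formed a tight group. The gene ranked 52 had a median of 13.2 CPM at Day 1, with 1574 CPM in cat 4, 1464 in cat 7, 574 in cat 5 and 541 in cat 19, and a lowest value of 0.34 CPM in cat 9. At Day 8 its median was 7.10 CPM. It had fallen to 8.74 CPM in cat 7 and 30.6 in cat 19, stood at 773 CPM in cat 4, and reached 4044 CPM in cat 2, where it had been 167. The levels of the 2 days overlapped over nearly their whole range.

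The gene ranked 63 followed the same tumours. Its Day 1 median was 2.65 CPM, with the highest value, 546 CPM, in cat 7 and no count in cat 9. Its Day 8 median was 1.17 CPM, with 1191 CPM in cat 2 against 48.2 there at Day 1, and 1.81 CPM in cat 7. The gene ranked 33 went from 1340 to 0.38 CPM in cat 7, from 187 to 1.19 in cat 13 and from 42.3 to 910 in cat 2. Its median was 6.64 CPM at Day 1 and 0.976 at Day 8.

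Between the genes ranked 52 and 63, r over the 19 cats was 0.98 at Day 1 and 0.98 at Day 8. For the genes ranked 63 and 33 it was 0.95 and 0.95, and for those ranked 52 and 33 0.91 and 0.92. The files do not say how reads shared between similar genes were counted, and whether these 3 share reads was not tested. Their fitted log2 changes were -1.79 ± 0.65, -1.96 ± 0.75 and -2.54 ± 0.82 (SE), with edgeR adjusted p of 0.0925, 0.111 and 0.0618, so none passed the threshold of 0.05. They were lower at Day 8 in 16, 15 and 16 of 19 cats. Cat 2 went against the rest, with rises of 4.587, 4.597 and 4.395 in log2(CPM + 1), where the next largest rises in any cat were 0.13, 0.38 and 1.06.

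A second pair, ranked 51 and 85, was spread over more tumours. The gene ranked 51 had a Day 1 median of 127 CPM, with 1222 CPM in cat 11, 809 in cat 4, 792 in cat 2 and 575 in cat 13, and a lowest value of 1.57 CPM in cat 8. At Day 8 the median was 52.8 CPM. Cat 10 was highest with 856 CPM, cat 13 had 1.13 CPM and cat 16 none. The gene ranked 85 had a Day 1 median of 81.2 CPM and a highest value of 388, and a Day 8 median of 36.9 with 435 CPM in cat 2. The pair had r of 0.92 at Day 1 and 0.87 at Day 8, and log2 changes of -1.56 ± 0.74 and -0.95 ± 0.39 (SE), neither past the threshold.

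Other wide genes differed in the tumours where they were highest. The gene ranked 84 was highest in cat 13 at Day 1, with 1747 CPM against a median of 86.8, and in cat 7 at Day 8, with 1864 CPM against a median of 38.2. Its r with the genes ranked 52, 63 and 33 went from 0.74, 0.73 and 0.66 at Day 1 to 0.19, 0.13 and 0.099 at Day 8. The gene ranked 6 was highest in cat 10 at both biopsies, with 445 and 525 CPM against medians of 9.20 and 7.14. Cats 11, 4, 7, 15 and 20 also stood well above the Day 1 median, at 194, 101, 90.5, 78.6 and 51.2 CPM. At Day 8 cats 4 and 20 came next, with 51.9 and 43.9 CPM. The gene ranked 4 was also highest in cat 10 at Day 1, with 282 CPM against a median of 22.5, but at Day 8 no cat exceeded 35.9 CPM. The gene ranked 90 was highest in cat 2 on both days, with 70.4 and 157 CPM. Its r with the genes ranked 52, 63 and 33 was 0.83, 0.82 and 0.81 at Day 1 and 0.72, 0.76 and 0.88 at Day 8.

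Among the 82 genes of narrow spread, 28 took many reads, with a mean log2(CPM + 1) of 8 or more. Most pairs of these rose and fell closely together across tumours. CPM is not corrected for gene length, so this is a share of reads and not a level per transcript. With 2 wide genes, 30 of the 100 tracking genes had such a mean, against 3.67% of the 12763. Among the 28, the median r over their 378 pairs was 0.84 at Day 1 and 0.86 at Day 8. Single pairs ran from 0.35 to 0.98 at Day 1 and from 0.21 to 0.97 at Day 8. Over all 401 genes of the same read level and spread the median was 0.064 and 0.14. The Day 1 value follows in part from the choice, since each gene was picked for following the anchor. The Day 8 libraries were not used in the ranking by r, but they entered the choice through the anchor's fall and come from the same cats. Libraries of a cat resembled each other (median r of deviations 0.630), so the Day 8 value is a description too.

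Together the 28 took 2.10 ± 0.555% of all counts at Day 1 and 2.05 ± 0.781% at Day 8 (SD, n = 19). At Day 1 the share was highest in cats 13, 11 and 2, at 3.17%, 3.15% and 2.95%, and lowest in cat 16, at 1.42%. At Day 8 it was 4.68% in cat 13 and at most 2.79% in any other cat, with the lowest, 1.28%, in cat 17. Of the 28, 25 were highest in cat 13 at Day 8, against 5.54% of the 12763 genes. The gene ranked 2 shows the pattern, with 1588 CPM in cat 13 and 1525 in cat 11 at Day 1 over a median of 755, and 2953 CPM in cat 13 at Day 8 over a median of 746.

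The 28 moved together within a cat, in both directions. All 28 were lower at Day 8 in cats 7, 11, 14, 15, 17 and 18, and 27 were higher in each of cats 3, 9 and 13. Of the 12763 genes, between 61.2% and 66.7% were lower in the first 6 cats, and 63.7%, 57.4% and 54.0% in cats 3, 9 and 13. The mean change on the log2(CPM + 1) scale was -0.77 in cat 15, -0.55 in cat 7 and -0.44 in cat 11, and 0.48 in cat 13 and 0.40 in cat 3. Over cats it was -0.086 ± 0.32 (SD, n = 19), a mean well inside the spread between cats. By median r at Day 8 the 28 lay closer to one another (0.86) than to the anchor (0.22, from 0.071 to 0.39).

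The Day 8 share of the 28 averaged 2.37 ± 0.813% in cats 1 to 13 and 1.49 ± 0.213% in cats 14 to 20 (SD, n = 12 and 7), and at Day 1 2.28 ± 0.589% and 1.79 ± 0.324%. Cat 13, with its 4.68%, stands in the first set. By batch label, which puts it in the other, the Day 8 share was 2.16 ± 0.380% for cats 1 to 12 and 1.89 ± 1.15% for cats 13 to 20 (SD, n = 11 and 8). Their mean change was 0.022 ± 0.30 in cats 1 to 13, lower in 5 of 12, and -0.27 ± 0.28 in cats 14 to 20, lower in 6 of 7. By batch label the values were -0.020 ± 0.28 (cats 1 to 12) and -0.18 ± 0.37 (cats 13 to 20). Total counts also differ between the first 2 sets, and their part in the shares was not tested.

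Across the 100 genes, the mean level of the set was 0.23 ± 0.34 lower at Day 8 on the log2(CPM + 1) scale (SD over 19 cats), lower in 15 of 19. The spread between cats was larger than the mean. Over the 12763 genes the mean change was -0.093. The 82 narrow genes averaged -0.098 ± 0.27, lower in 12 of 19 cats, and the 18 wide genes -0.83 ± 1.14 (SD). The median over the 12763 genes was below 0 in 17 of 19 cats, and the median gene's mean change was -0.10 both among the tracking genes and among the 12763. Cat 7 changed by -0.997, cat 11 by -0.86, cat 15 by -0.83, cat 17 by -0.45 and cat 18 by -0.42, while no cat gained more than 0.12. In cat 15, 96 of the 100 genes were lower at Day 8, in cat 7 95, in cats 11 and 17 92 each and in cat 18 88, where 63.6%, 61.8%, 61.2%, 66.1% and 62.2% of the 12763 genes were lower. In cats 1, 12, 16 and 13, 26, 28, 31 and 32 were lower, beside 59.2%, 50.6%, 51.9% and 54.0% of the 12763. With libraries scaled by TMM in place of their totals the mean change was -0.15. Scaled by library totals and divided by batch label, it stood at -0.19 for cats 1 to 12 and -0.29 for cats 13 to 20. By column order it was -0.19 for cats 1 to 13 and -0.29 for cats 14 to 20.

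In the fit over all genes, 1 tracking gene passed the threshold as lower at Day 8 and 0 as higher. Of all 14996 genes, 1.93% (290) were called lower and 5.11% (767) higher. At an unadjusted p under 0.05, 19 tracking genes were lower and 5 higher, beside 11.6% (1736) and 13.2% (1985) of all genes. The members' median log2 change was -0.013, beside -0.017 over all genes, and 56 of the 100 were negative, beside 53.9%. Nothing is read from these counts: the anchor was picked for its fall, and the Day 1 levels that chose the others are one side of the contrast.

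The gene that was called, ENSFCAG00000001755, ranked 25, is one of the 28. It ran from 216 to 866 CPM at Day 1 with a median of 371, and from 155 to 653 at Day 8 with a median of 315, highest in cat 8 on both days. It was lower in 16 of 19 cats and the days overlapped, with means of 439 ± 190 and 336 ± 137 CPM (SD, n = 19). Its log2 change was -0.29 ± 0.089 (SE, edgeR adjusted p = 0.0481), and it was also called in 6 of the 29 alternative fits, with values from -0.40 to -0.078. With 1 cat left out it stayed called only without cat 1, 3, 9 or 12, and leaving out any other cat ended the call.

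The largest positive changes did not pass. ENSFCAG00000030486, ranked 9, had 3.69 ± 1.00 CPM at Day 1 and 4.32 ± 1.43 CPM at Day 8 (SD, n = 19), higher in 11 of 19 cats, with a log2 change of 0.30 ± 0.12 (SE, edgeR adjusted p = 0.127). ENSFCAG00000036638, ranked 38, had 32.3 ± 7.82 and 36.4 ± 9.44 CPM (SD, n = 19), higher in 13 of 19, with a log2 change of 0.25 ± 0.099 (SE, edgeR adjusted p = 0.119). Both were called in 0 of the 29 alternative fits as well.

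The wide and narrow genes are described in the same way, with nothing read from the counts, since the SD that divides them is also a Day 1 value. The 18 wide genes had a median log2 change of -0.71, from -2.54 to 0.17, with 16 negative and 0 called (smallest edgeR adjusted p = 0.0618), and 11 were lower at an unadjusted p under 0.05. Over all 1484 tested genes with an SD of 1 or more the median was -0.10, 57.1% were negative and 19.3% were lower at that unadjusted p. The 82 narrow genes had a median of 0.0042, with 40 negative, and the 28 that took many reads had a median of 0.0085, beside -0.023 for the 401 of the same kind. Within cats, the mean change of the wide genes was -3.09 in cat 7, -2.80 in cat 11 and -2.69 in cat 13, but 0.98 in cat 2 and 1.01 in cat 8. It averaged -0.83 ± 1.14 (SD, n = 19), lower in 14 of 19. By column order it averaged -0.95 ± 1.36 in cats 1 to 13 and -0.62 ± 0.66 in cats 14 to 20 (SD). By batch label the values were -0.79 ± 1.31 for cats 1 to 12 and -0.88 ± 0.95 for cats 13 to 20 (SD). In cat 13 the wide genes were thus far lower at Day 8 while the 28 that took many reads were higher.

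**Figure D3:**
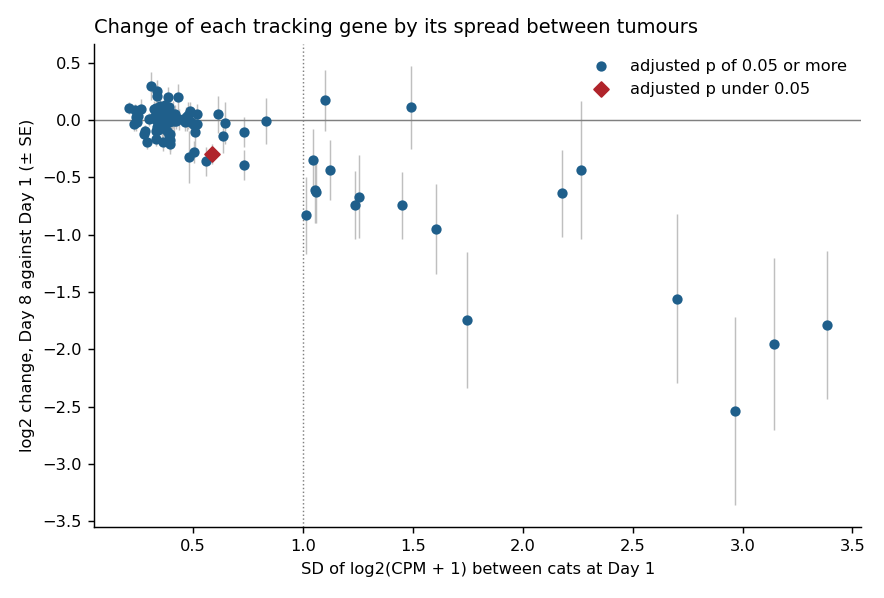
Fitted log2 change of each tracking gene (points, bars show the SE) against the SD of its log2(CPM + 1) between cats at Day 1, with a diamond for the gene with an adjusted p under 0.05 and a dotted line at an SD of 1. Genes left of the line lie around 0, between -0.39 and 0.30, and most of the 18 to its right lie below 0 with long bars.

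The scaling and the tool set how many tracking genes were called. DESeq2 with the same block called 14 lower and 0 higher, beside 5.71% (857) and 8.58% (1286) of all genes. With library totals in place of TMM factors edgeR called 10 lower and 0 higher, beside 8.26% (1239) and 3.83% (575), so the direction of most calls over the whole table turned with the scaling. The median over all genes then was -0.11 and that of the tracking genes -0.10, with 84 of 100 negative beside 69.5%. The difference in change between cats 13 to 20 and cats 1 to 12, which with the block is also the batch term, was called in 0 tracking genes and in 0% of all genes. At an unadjusted p under 0.05 it held for 0 tracking genes, beside 2.66% (399) of all.

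At Day 8 the tracking genes followed the anchor only weakly. Their r with it had a median of 0.25, from -0.24 to 0.66, beside 0.076 over all 12762 other genes and 0.17 over the 3161 others that had followed the anchor best at Day 1. An r of 0.5 or more was kept by 12 of the 100, beside 3.14% of all, and 11 were below 0, beside 38.4%. The wide genes had a median r of 0.46 and the narrow genes 0.23. Of the 100, 67 still followed the anchor more closely than the other 2 reference genes, as did 25.6% of all 12762. All these r are over the same 19 libraries, which differ in depth and batch label. They rest on an anchor that was picked for its fall and had few counts in most of these libraries. Among themselves the tracking genes kept a median r of 0.44 at Day 8, from 0.51 at Day 1.

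**Figure D4:**
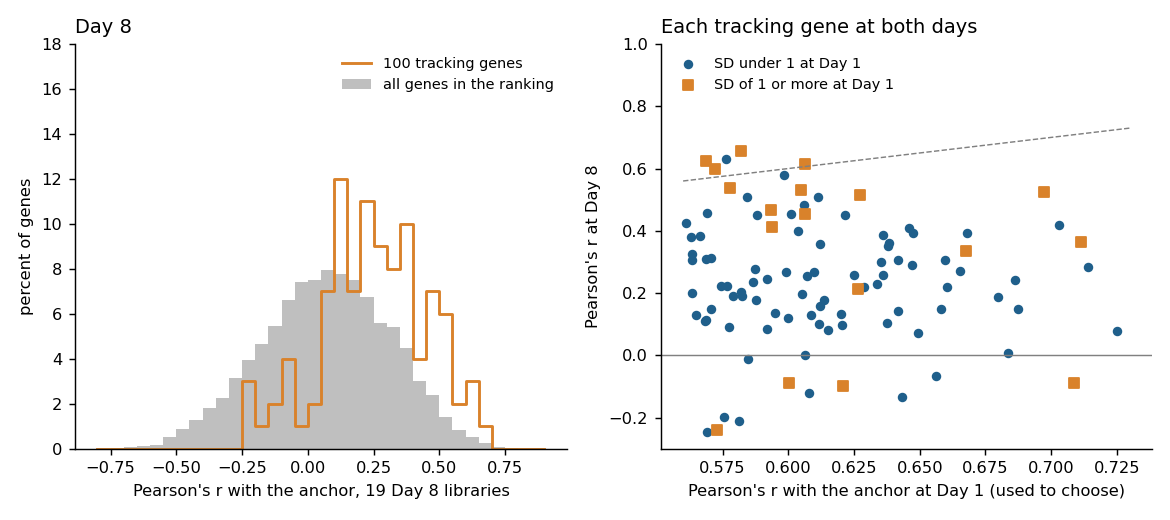
Left, distribution of Pearson's r with the anchor over the 19 Day 8 libraries (percent of genes per bin of r) for the 100 tracking genes (line) and all genes in the ranking (grey). Right, each tracking gene's r at Day 8 against its r at Day 1, which chose it, with the dashed line marking equal values and squares for genes with an SD of 1 or more. The line lies to the right of the grey, with medians of 0.25 and 0.076, and most points lie below the dashed line.

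The list depended on which tumours were in it and on how the levels were scaled. With 1 cat left out, between 67 (without cat 7) and 93 (without cat 15 or cat 19) of the 100 genes were chosen again, with a median of 81. In all 19 of these lists 34 genes stayed, and 13 stayed in fewer than 10. Without cats 4 and 7, the highest in the anchor, 49 remained, and with Spearman's rho in place of r 60 remained. With libraries scaled by TMM in place of their totals 67 remained, and with 5 in place of 1 added to CPM 82 remained. The rule applied to cats 1 to 13 alone chose 25 of the 100, to cats 14 to 20 alone 8, and to the 19 Day 8 libraries 3, of which 2 are wide genes.

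**Figure D5:**
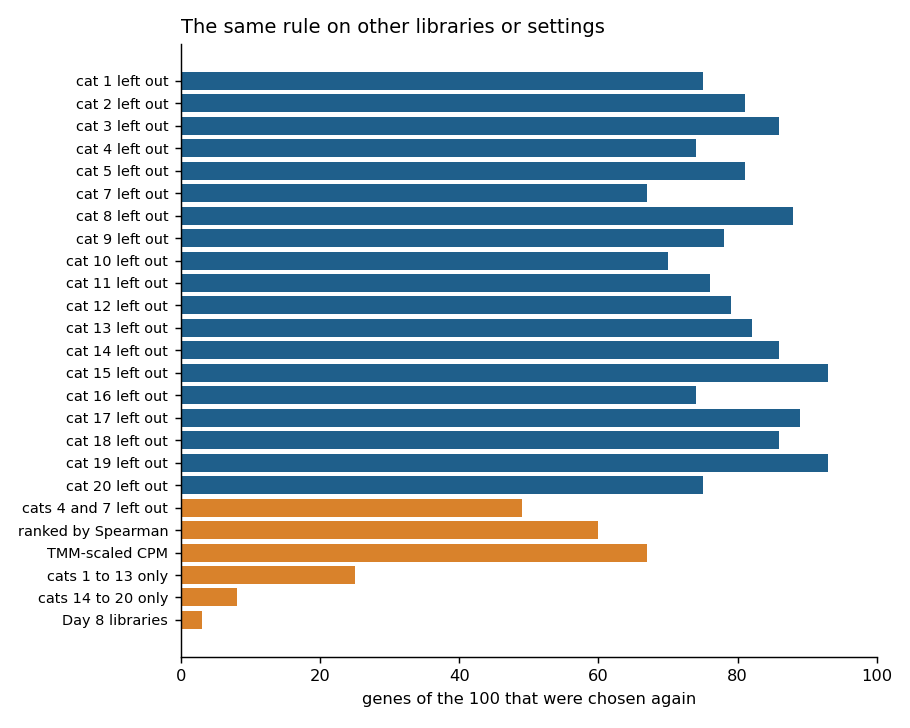
Number of the 100 tracking genes chosen again (horizontal axis) when 1 cat was left out (upper bars) or when other libraries, another measure or TMM scaling were used (lower bars). Bars for 1 cat left out run from 67 to 93, and the shortest bar, for the Day 8 libraries, is at 3.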

How the data were processed

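The authors deposited raw read counts, whole numbers for every gene in every library, and these were used. The submitters' processing notes name HISAT2 2.0.5 and featureCounts. Not given in the sources used here are the build, the annotation and the strand setting. Counts of 14996 genes passed filterByExpr and were tested with edgeR 4.0.16 (robust quasi-likelihood, TMM) in R 4.3.3, with the cat as a block and day as a term over all 38 libraries. P-values were adjusted by Benjamini-Hochberg over all genes tested, at a threshold of 0.05. DESeq2 1.42.0, limma 3.58.1, other scalings, filters and sets of cats were alternatives. Scripts were tested on simulated data.

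Same-numbered libraries were taken as 1 cat because their deviations from the day means correlated in 19 of 19 pairs (r 0.373 to 0.907, against a median of -0.052 between different cats). Of the Day 1 libraries 19 of 19, and of the Day 8 libraries 17 of 19, correlated best with their own number. The numbers are not stated to be cats, so this pairing comes from the data. P-values of the fit with the cat as a block weigh the mean Day 8 change against the spread left within cats. Nothing says how biopsies were taken, so these p-values speak only for these samples. Copied libraries were looked for over 703 pairs, and the lowest chi-square divided by its degrees of freedom was 22.3.

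The members and lists were chosen with earlier results of these data known. The SD of 1, the mean of 8 and the genes described by rank were chosen after seeing values, and an exploratory clustering preceded them. Printed IDs are the anchor, the called member with the largest fall and the 2 largest rises. Marker lists could not be used, for lack of symbols.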

Additional observations from a re-analysis of the deposited data

How the results depend on the processing

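The count of 1 tracking gene called lower rests on the setting. It was 0 in the unpaired fit with batch and day as terms and no replicate block, 0 with the block and batch together, 14 with DESeq2, 2 with limma, 10 with library totals, 0 without the filter on low counts, 0 in each of cats 1 to 12, 13 to 20, 1 to 13 and 14 to 20, and 3 when the list held 200 genes. Leaving out 1 cat gave 0 to 3, with 0 without cats 4, 5, 7, 11, 13, 15, 17, 18 or 20, 2 without cats 1, 10 or 16, and 3 without cat 2. The count called higher was 0 in all of these, except 1 with 200 genes. Over the whole table, both fits with a batch term called 0 genes in either direction. So did cats 1 to 12, 13 to 20 and 1 to 13. Cats 14 to 20 called 27 of 14734 lower and 2 higher, and limma 450 of 14996 lower and 941 higher. Without the filter it was 168 of 23589 lower and 556 higher. With 1 cat left out, 148 to 359 genes were called lower and 500 to 822 higher. For the list of 200 the main fit applies, with 1.93% lower and 5.11% higher. The median log2 change of the tracking genes was -0.049 to 0.016 with 1 cat left out, -0.16 to 0.11 under the other settings, and 0.11 without the block. The mean change of the set stayed between -0.25 and -0.19 with 1 cat left out. The number of genes chosen again was 67 to 93 with 1 cat left out, 60 with Spearman's rho and 49 without cats 4 and 7. It was 67 with TMM-scaled CPM, 82 with 5 in place of 1 added to CPM, and 89 and 94 with a lowest mean of 1 and 3. In cats 1 to 13, 14 to 20 and 1 to 12 it was 25, 8 and 19, and in the Day 8 libraries 3. The cause of these differences was not tested. Several settings, among them cats 1 to 13 and 14 to 20 and the list without cats 4 and 7, were chosen after seeing the data. The anchor had no count in 4 of the 38 libraries. These held 19.0, 18.2 and 18.0 M counts (cats 3, 7 and 9 at Day 8) and 10.6 M (cat 20 at Day 1), and the part of depth was not tested.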
